A study of Mus musculus with 9 samples.

Results

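The loci described here lie on mouse chromosome 16 on either side of the protamine cluster, the locus edited in this study. They are the assembled loci numbered MSTRG.8450 to MSTRG.8555, leaving out the cluster itself (MSTRG.8525 to MSTRG.8528), and are taken as a run because locus numbers follow the order along the genome. This gave 102 loci, 75 before the cluster and 27 after it, of 50485 rows in the table. Only the 2 end loci carry a gene name, 1700037C18Rik (MSTRG.8450) and Gm15738 (MSTRG.8555), and they have one because the study listed them as changed on these same libraries, so the ends of the run were set with results known. The other 100 are given by locus number, because no source pairs them with a gene.

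In the nucleus of the elongating spermatid, histones give way to protamines, whose many arginines let the sperm genome be packed tightly. Their genes sit side by side with a transition protein gene and are transcribed at a very high level in spermatids. Of the protein encoded by Prm2, mature sperm keep the C-terminal part and lose the other, cP2. Mice carrying an allele without the coding region of cP2 (Prm2Δc) were compared by 3'-end RNA-seq of testis.

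The 9 libraries come from 9 male mice, 3 in each of 3 groups, aged 10 to 13 weeks and labelled C57BL/6, from testis freed of its tunica albuginea. WT mice carry no edited allele. Prm2+/Δc mice, labelled het, carry 1 Prm2Δc allele and 1 wildtype allele. Prm2-/Δc mice, labelled hom, carry 1 Prm2Δc allele and 1 null allele (Prm2Δ97bp), so that neither copy of Prm2 is wildtype; they came from Prm2+/Δc females and Prm2+/- males. The Prm2Δc founders were made with Cas9 in oocytes of B6D2F1 females, a cross of C57Bl/6 and DBA2, and their line was then crossed to C57Bl/6J for 3 or more generations. An edited allele and whatever sequence came along with it on chromosome 16 cannot be told apart in this design, which bears on every comparison below.

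The guides are shown because they place the edit within the cluster. Distances below are counted from the edges of the cluster, not from the guides. Matched to the Prm2 transcripts of GENCODE M21 (GRCm38), the first lies at chr16:10791978-10791997 on the plus strand and the second at chr16:10791867-10791885 on the minus strand, both within the coding sequence of Prm2, which is on the minus strand. Capitals mark the PAM, the motif that Cas9 needs beside its target.
Guide 1: cctcattcggtagcgaaccaTGG
Guide 2: ggactatgggaggacacacAGG
The reference sequence between the 2 predicted cut sites, chr16:10791870-10791994, has 125 bases, all 125 of them coding, and reads on the strand of the gene as follows. It is the part of the edited locus that the guides frame, not the sequence of the repaired allele.
Prm2 between the cuts: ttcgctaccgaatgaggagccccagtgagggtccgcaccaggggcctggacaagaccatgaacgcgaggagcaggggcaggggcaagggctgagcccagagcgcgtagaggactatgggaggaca

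In the same annotation, the interval from 1700037C18Rik (chr16:3895179-3908689, minus strand, protein coding) to Gm15738 (chr16:13354374-13468755, minus strand, an antisense transcript) spans 9.57 Mb. It reaches 6.89 Mb before the cluster and 2.66 Mb after it. It holds 160 annotated genes, 73 of them protein coding, among them Crebbp, a histone acetyltransferase, Ciita, the activator of MHC class II genes, and Socs1, an inhibitor of cytokine signalling. Which locus each of these genes is was not given, and 22 of the 160 have a row of their own under an Ensembl ID.

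Library totals ran from 9070746 counts in WT replicate 1 to 20320362 in Prm2+/Δc replicate 3. The flanking loci together made up 0.370% to 0.410% of a library. Values per mouse are given as normalized counts, the deposited counts divided by a size factor for each library. Prm2-/Δc replicate 3 stood apart before any locus was compared. The 4 cluster loci took 4.88% of its counts, against 2.67% to 3.30% in the other 8 libraries, and its median correlation with the other libraries, over 12542 rows, was the lowest of the 9 at 0.870. Its part in the results was not tested beyond leaving it out.

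The cluster was plain in the data as a run of 4 loci. Each had at least 10320 normalized counts in every library, while the 10 nearest loci, 5 on each side, had at most 322. None of the 4 carries a name, so Prm2 itself was not paired with a row. A 3'-end read outside the deleted part would not check the genotype labels in any case. Against WT, the log2 fold changes of MSTRG.8525, MSTRG.8526, MSTRG.8527 and MSTRG.8528 were 0.02 ± 0.07 (SE), -0.14 ± 0.09, -0.15 ± 0.09 and -0.12 ± 0.13 in Prm2+/Δc. In Prm2-/Δc they were 0.20 ± 0.09, -0.13 ± 0.18, 0.11 ± 0.12 and 0.27 ± 0.38. The sign of 2 of these rested on Prm2-/Δc replicate 3: without it MSTRG.8526 was at 0.02 ± 0.11 and MSTRG.8528 at -0.29 ± 0.17. None of these 8 differences passed the edgeR quasi-likelihood test after Benjamini-Hochberg adjustment over all rows.

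**Figure D1:**
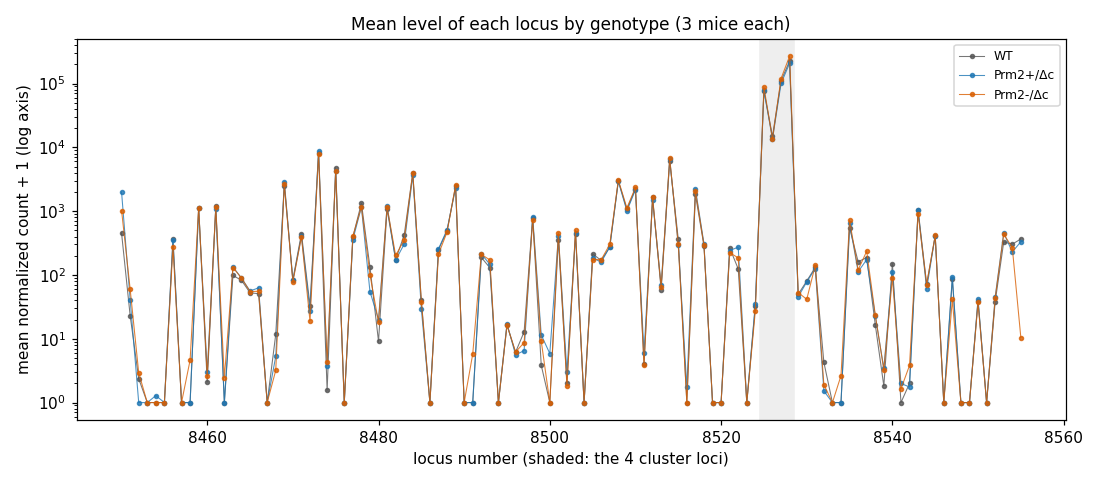
Mean normalized count plus 1 (log axis) of the 102 flanking loci and the 4 cluster loci (shaded) against locus number, with a line for each genotype (3 mice each). The 4 cluster loci stand above all their neighbours, and Gm15738, the last locus, is the place where the line for Prm2-/Δc drops away from the others.

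The levels of the flanking loci differed widely. Of the 102, 17 had 0 counts in every library and 61 had counts in every library. A mean of at least 10 normalized counts was reached by 65 loci, at least 100 by 46 and at least 1000 by 16. The most abundant were MSTRG.8473, MSTRG.8514, MSTRG.8475, MSTRG.8484 and MSTRG.8508, with means of 8280, 6470, 4438, 3861 and 2991 normalized counts over the 9 mice. All 5 lie before the cluster. A filter on low counts left 66 of the 102 loci in each of the 3 comparisons, the same 66 each time, and the other 36 were not tested.

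Level did not follow distance. Over the 66 tested loci, the Spearman correlation between the mean log2 normalized count and the distance in locus numbers to the nearer edge of the cluster was 0.067. Median levels were 193 normalized counts at 1 to 10 locus numbers from the cluster (13 tested loci), 406 at 11 to 25 (19 loci), 252 at 26 to 50 (20 loci) and 225 beyond 50 (14 loci). These loci share their libraries and are no replicates of each other, so the correlation is a description. Distance in bases could not be used, because the loci have no coordinates here.

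Mice of a group differed from each other by a median coefficient of variation of 13.2% over the 46 flanking loci with a mean of at least 100 normalized counts. The same measure was 15.3% over 105 of the next 232 chromosome 16 loci (MSTRG.8556 to MSTRG.8787) and 15.98% over 9908 rows of the whole table. It was over 50% at 3 of the 46, or 6.52%, against 13.3% of those next loci and 8.17% of those rows. Among the flanking loci it was highest at 1700037C18Rik with 58.9%.

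The first question was whether the neighbours of the edited locus differ between genotypes at all. One test over the 3 groups and 9 libraries called 0 of the 66 flanking loci at an adjusted p under 0.05 (the edgeR quasi-likelihood test, Benjamini-Hochberg adjusted), and 8 of all 18603 rows tested, or 0.043%. At an unadjusted p under 0.05 there were 4 flanking loci, 6.06% of the 66, where all rows gave 3.82%. The 4 were Gm15738, MSTRG.8530, MSTRG.8540 and MSTRG.8483, with unadjusted p of 0.000763, 0.0187, 0.0364 and 0.0422. The lowest adjusted p by that edgeR test was 0.617, at Gm15738. DESeq2 was not run over the 3 groups.

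Gm15738, the last locus after the cluster, was nearly silent in every Prm2-/Δc mouse. It had 420, 375 and 299 normalized counts in WT mice, 302, 252 and 438 in Prm2+/Δc mice and 0, 20.5 and 7.60 in Prm2-/Δc mice. The Prm2-/Δc mice lay far below all others, while WT and Prm2+/Δc overlapped. Their deposited counts of 0, 25 and 7 are few, so the size of the difference is known less well than its direction. The mean was 365 ± 61.1 in WT mice (SD, n = 3), 331 ± 96.0 in Prm2+/Δc mice and 9.38 ± 10.4 in Prm2-/Δc mice, a ratio of means of 38.9 between WT and Prm2-/Δc and of 35.3 between Prm2+/Δc and Prm2-/Δc.

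Yet edgeR did not call this locus. Against WT the log2 fold change was -5.23 ± 0.99 (SE), with an adjusted p of 0.764 by the edgeR quasi-likelihood test, Benjamini-Hochberg adjusted. Against Prm2+/Δc it was -5.09 ± 0.99, with an adjusted p of 0.645 by the same edgeR test. DESeq2 with Benjamini-Hochberg adjustment called it in both, with adjusted p of 1.57e-07 and 8.47e-07, so the call rests on the tool. Leaving out 1 library moved the log2 fold change to between -6.57 and -4.66 against WT and to between -6.45 and -4.52 against Prm2+/Δc, the extremes coming without Prm2-/Δc replicates 2 and 1. The unadjusted p by edgeR's quasi-likelihood test were 0.00154 and 0.00184. Having been picked by the study on these libraries, it is no independent evidence of a change next to the edited locus.

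Gm15738 is an antisense transcript that overlaps the protein-coding gene Mrtfb, a coactivator of serum response factor, over 63156 bases on the opposite strand, and also Gm32817, a processed transcript, over 4692 bases, and the miRNA genes Mir193b and Mir365-1. The strand used in counting was not given, so reads from Gm15738 and from its partners cannot be told apart. The pair of loci just before Gm15738, given for comparison and outside the rule for named loci, had no such loss. MSTRG.8553 had 328 ± 131 normalized counts in WT mice, 454 ± 12.1 in Prm2+/Δc mice and 435 ± 46.4 in Prm2-/Δc mice (SD, n = 3), and MSTRG.8554 had 303 ± 47.2, 228 ± 77.6 and 267 ± 107. Just past the end of the interval, MSTRG.8556 was at 0 in all 9 libraries and MSTRG.8557 at no more than 2.26 normalized counts, so they show nothing of that side, and MSTRG.8558 had 31.2 ± 3.26, 34.4 ± 4.66 and 23.1 ± 8.95. The loci farther on, up to MSTRG.8565, are given for Prm2-/Δc against WT after their values were seen. MSTRG.8559 and MSTRG.8560 had log2 fold changes of 0.31 ± 0.28 and 0.75 ± 0.78, MSTRG.8561 had -0.19 ± 0.16, and MSTRG.8562 was at 0 in all libraries. The size of these 2 increases depended on single libraries. Without Prm2-/Δc replicate 3 MSTRG.8559 and MSTRG.8560 were at -0.0073 ± 0.20 and 0.19 ± 0.85, and without Prm2-/Δc replicate 1 at 0.53 ± 0.24 and 1.20 ± 0.65. MSTRG.8560 was also at 1.64 ± 0.80 without WT replicate 3 and 0.41 ± 0.86 without WT replicate 1. MSTRG.8563 and MSTRG.8564 were at -0.42 ± 0.17 and -1.06 ± 0.42, with unadjusted p of 0.0451 and 0.0439 by edgeR's quasi-likelihood test. MSTRG.8565 had 1414, 1716 and 1088 in WT mice, 376, 855 and 1636 in Prm2+/Δc mice and 438, 445 and 182 in Prm2-/Δc mice. Its log2 fold change was -1.99 ± 0.38 in Prm2-/Δc against WT. By the edgeR quasi-likelihood test, Benjamini-Hochberg adjusted, none of these was called (for MSTRG.8565 adjusted p = 0.764). DESeq2 called MSTRG.8565 at an adjusted p of 0.000267 and none of the others. Without Prm2-/Δc replicate 3 its log2 fold change was -1.68 ± 0.23.

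**Figure D2:**
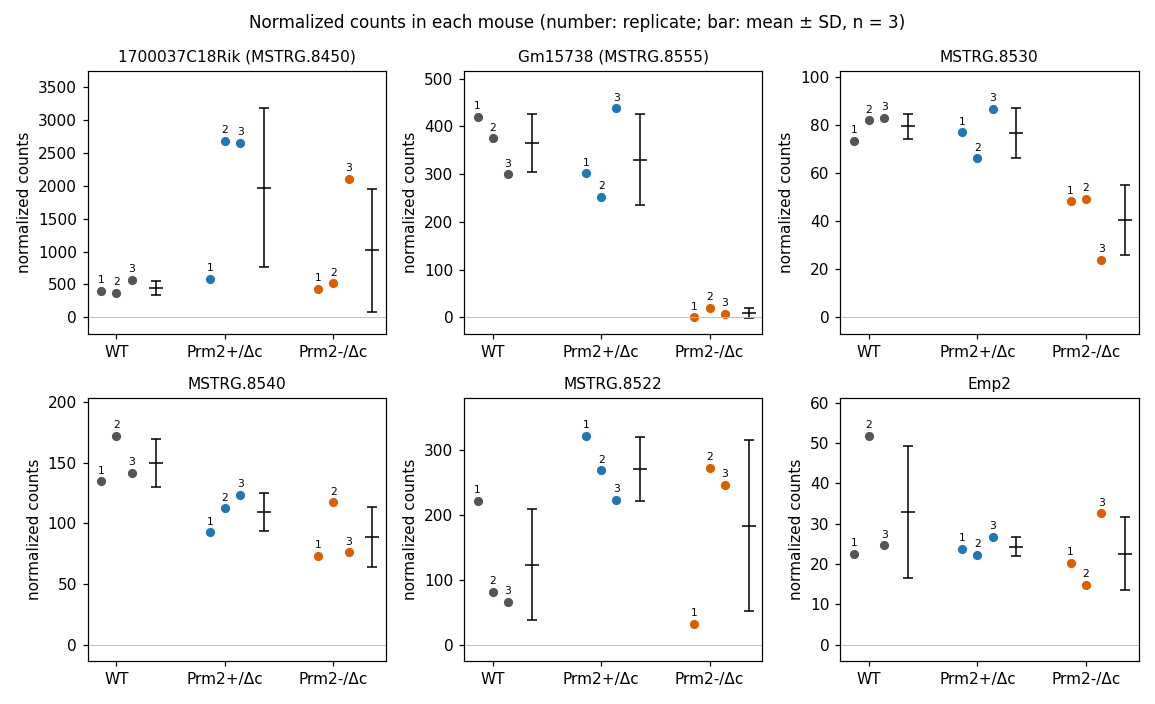
Normalized counts of 5 flanking loci and of Emp2 in each of the 9 mice (points, numbered by replicate), with the mean ± SD of each group (n = 3). Gm15738 reaches at most 20.5 in Prm2-/Δc and lies at 252 to 438 elsewhere, and 1700037C18Rik is high in 3 mice of the 2 edited genotypes.

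In Prm2+/Δc against WT, 0 of 66 flanking loci were called by edgeR, where a call needs an adjusted p under 0.05 together with a log2 fold change over 1 in size, and 0 by DESeq2. Among all rows edgeR called 13 of 17815, or 0.073%, and DESeq2 88 of 17684, or 0.498%. At an unadjusted p under 0.05, 2 flanking loci were higher (background 1.77%) and 1 was lower (1.93%). By DESeq2 there were 8 of 66 (5 higher and 3 lower), 12.1% where all rows gave 6.5%, and without a filter, chosen after seeing the data, 5 of 81, 6.17% where all rows gave 2.8%, so this count rests on the tool. Groups that did not overlap were found at 9 loci higher in Prm2+/Δc (background 5.56%) and 3 lower (4.61%), 18.2% of the 66 against 10.2% of all rows. The log2 fold change exceeded 1 in size at 5 loci, 7.58% where all rows gave 5.71%.

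1700037C18Rik, the first locus of the interval, had the largest of these differences. It had 404, 371 and 567 normalized counts in WT mice, 581, 2679 and 2650 in Prm2+/Δc mice and 435, 518 and 2100 in Prm2-/Δc mice. The values fell into a high and a low range that genotype did not fully set. High were 2 Prm2+/Δc mice and 1 Prm2-/Δc mouse and no WT mouse, and both edited genotypes also had low mice. The log2 fold change in Prm2+/Δc was 2.13 ± 0.57 (SE), higher than every WT mouse in 3 of 3, with an adjusted p of 0.999 by the edgeR quasi-likelihood test, Benjamini-Hochberg adjusted. Without Prm2+/Δc replicate 1, the low mouse, edgeR called it, at 2.57 and an adjusted p of 0.0478 by the same test, with 17 of all 18887 rows (0.09%). DESeq2 gave an adjusted p of 0.116 and did not call it. Without a filter, an alternative chosen after seeing the data, DESeq2 called it at an adjusted p of 0.00435, with 83 of all 20561 rows (0.404%). In Prm2-/Δc against WT it was 1.20 ± 0.64, and 0.09 without replicate 3.

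The annotation places 1700037C18Rik opposite 2 protein-coding genes, Naa60, an N-terminal acetyltransferase, over 9602 bases, and Gm20695, which covers it for all its 13511 bases; these cannot be told apart either. The next locus, MSTRG.8451, outside the rule for named loci, had 0 counts in 4 libraries, WT replicates 1 and 2, Prm2+/Δc replicate 2 and Prm2-/Δc replicate 3, and at most 93.9 normalized counts in the others. Hbb-bs, an adult beta-globin chain and a marker of red blood cells, had its 3 highest values in the same 3 mice. It had 578, 381 and 491 normalized counts in WT mice, 783, 1010 and 1415 in Prm2+/Δc mice and 567, 688 and 1137 in Prm2-/Δc mice. Against WT the log2 fold change of Hbb-bs was 1.14 ± 0.26 in Prm2+/Δc and 0.73 ± 0.31 in Prm2-/Δc. DESeq2 called Hbb-bs in Prm2+/Δc, at an adjusted p of 0.00142, and not in Prm2-/Δc. The edgeR quasi-likelihood test called it in neither (adjusted p = 0.999 in Prm2+/Δc). It is the only one of 3 red blood cell genes with a named row, and its part in the level of 1700037C18Rik was not tested. Fewer cells of a type and less RNA per cell cannot be told apart in whole testis.

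Of 32 genes listed as markers of the cell types a testis sample could hold, 5 have a named row. Beside Hbb-bs, these are Zbtb16 and Kit for spermatogonia, with group means of 31.4 to 41.0 and 35.2 to 58.0 normalized counts. Amh for Sertoli cells and Crisp1 for the epididymis are listed at 0 in all 9 libraries. Spermatid genes have no named row, and the 4 cluster loci stand in for them here only by their place and level.

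Other flanking loci differed less in Prm2+/Δc. MSTRG.8483 had 386, 386 and 496 normalized counts in WT mice and 316, 270 and 328 in Prm2+/Δc mice, a log2 fold change of -0.48 ± 0.16 (unadjusted p = 0.0225 by edgeR's quasi-likelihood test). MSTRG.8517, 8 locus numbers before the cluster, had 2027, 1692 and 1764 in WT mice and 2312, 2165 and 2249 in Prm2+/Δc mice, a log2 fold change of 0.29 ± 0.10 (unadjusted p = 0.0247 by the same edgeR test). Neither group pair overlapped, and neither locus passed after adjustment. Taking the 3 largest separated differences in each direction, the others were MSTRG.8480 and MSTRG.8522 among increases, at log2 fold changes of 1.16 ± 0.94 and 1.14 ± 0.48, and MSTRG.8540 and MSTRG.8478 among decreases, at -0.45 ± 0.19 and -0.21 ± 0.11. Without WT replicate 1 the first pair moved to 0.64 and 1.87, and without Prm2+/Δc replicate 3 MSTRG.8478 moved to -0.13. MSTRG.8480 had at most 24.9 normalized counts in any mouse.

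In Prm2-/Δc against WT, edgeR called 0 of 66 flanking loci and DESeq2 called 1 of 65, Gm15738. Among all rows edgeR called 1 of 17637, or 0.00567%, and DESeq2 65 of 17465, or 0.372%. At an unadjusted p under 0.05, 0 flanking loci were higher (background 1.54%) and 3 were lower (1.66%), all 3 of them after the cluster. DESeq2 had 4 of 65, 6.15% where all rows gave 3.37%. Groups did not overlap at 5 loci higher in Prm2-/Δc (4.58% of all rows) and 5 lower (4.32%), 15.2% of the 66 against 8.90% of all rows. The log2 fold change exceeded 1 in size at 5 loci, 7.58% against 6.61% of all rows.

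MSTRG.8530 is the second locus after the cluster. It had 73.3, 81.9 and 82.8 normalized counts in WT mice, 76.9, 66.1 and 86.7 in Prm2+/Δc mice and 48.3, 49.3 and 23.9 in Prm2-/Δc mice. All 3 Prm2-/Δc mice lay below all 6 others. The log2 fold change was -0.97 ± 0.33 against WT and -0.92 ± 0.33 against Prm2+/Δc, with unadjusted p of 0.0250 and 0.0299 by edgeR's quasi-likelihood test. After Benjamini-Hochberg adjustment the same edgeR test gave an adjusted p of 0.999 against Prm2+/Δc, so the difference was not called. Without Prm2-/Δc replicate 3, the lowest mouse, the log2 fold changes were -0.70 ± 0.23 and -0.66 ± 0.23.

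At MSTRG.8540, 12 locus numbers after the cluster, both edited genotypes lay below WT. It had 135, 172 and 142 normalized counts in WT mice, 92.8, 112 and 123 in Prm2+/Δc mice and 73.4, 117 and 76.0 in Prm2-/Δc mice. The log2 fold change was -0.75 ± 0.26 in Prm2-/Δc (unadjusted p = 0.0282 by edgeR's quasi-likelihood test) and -0.45 ± 0.19 in Prm2+/Δc (0.0568). Without Prm2-/Δc replicate 3 it was -0.65 ± 0.29 in Prm2-/Δc (unadjusted p = 0.0698 by the same edgeR test). Both comparisons use the same WT mice, and the 2 edited genotypes overlapped. Among loci higher in Prm2-/Δc with no overlap, MSTRG.8480, MSTRG.8463 and MSTRG.8535 had the largest log2 fold changes, 1.02 ± 0.97, 0.42 ± 0.24 and 0.40 ± 0.20. Leaving out 1 WT mouse brought them down to 0.49 (replicate 1), 0.24 and 0.22 (replicate 2).

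In Prm2-/Δc against Prm2+/Δc, edgeR called 0 of 66 flanking loci and DESeq2 called 1 of 66, again Gm15738. Among all rows edgeR called 2 of 17986, or 0.0111%, and DESeq2 98 of 17807, or 0.55%. At an unadjusted p under 0.05, 0 flanking loci were higher in Prm2-/Δc (background 1.72%) and 2 were lower (2.35%), Gm15738 and MSTRG.8530. DESeq2 had 2 of 66, 3.03% where all rows gave 4.22%. Groups did not overlap at 2 loci higher in Prm2-/Δc (4.71% of all rows) and 5 lower (5.4%), 10.6% of the 66 against 10.1% of all rows. Only Gm15738 and MSTRG.8547 exceeded a log2 fold change of 1 in size, 3.03% where all rows gave 6.61%. 1700037C18Rik was just under it at -0.95 ± 0.81, and its size depended on single libraries. It was -2.06 ± 0.71 without Prm2-/Δc replicate 3, -1.39 without Prm2+/Δc replicate 1 and -0.58 without Prm2-/Δc replicate 1. MSTRG.8547 had 99.5, 91.0 and 86.0 normalized counts in Prm2+/Δc and 10.6, 65.7 and 44.5 in Prm2-/Δc, a log2 fold change of -1.19 ± 0.59. It was -0.74 without Prm2-/Δc replicate 1, the mouse at 10.6, and -1.74 without replicate 2. The largest separated increases were MSTRG.8537 and MSTRG.8483, at 0.43 ± 0.18 and 0.20 ± 0.15, the second at 0.13 without Prm2+/Δc replicate 2. Without Prm2-/Δc replicate 3, 8 of 67 tested loci had an unadjusted p under 0.05 in this comparison, 11.9% where all rows gave 8.73%. In Prm2-/Δc against WT there were then 5 of 66, 7.58% where all rows gave 4.78%, with 0 flanking loci called by edgeR in either.

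The 10 loci nearest the cluster held little that could be compared. MSTRG.8520, MSTRG.8523 and MSTRG.8533 had 0 counts in all 9 libraries, and MSTRG.8532 had at most 4.49 normalized counts. The other 6 were tested. MSTRG.8524, the last before the cluster, had 32.1 ± 29.9 normalized counts in WT mice, 34.7 ± 11.9 in Prm2+/Δc mice and 26.5 ± 3.11 in Prm2-/Δc mice (SD, n = 3). MSTRG.8529, the first after it, had 48.7 ± 13.5, 44.4 ± 11.8 and 52.0 ± 17.9. These adjoin the 4 most abundant loci of the region, yet neither reached 100 normalized counts in any mouse of the 3 genotypes.

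Of the other nearest loci, MSTRG.8521 and MSTRG.8531 kept within 0.25 of 0 on the log2 scale in all 3 comparisons. With 1 library left out MSTRG.8521 went as far as -0.30, -0.45 and -0.31, and MSTRG.8531 as far as -0.25, 0.21 and 0.26. MSTRG.8522 was the most variable. It had 221, 81.9 and 66.4 normalized counts in WT mice, 322, 269 and 223 in Prm2+/Δc mice and 31.9, 273 and 247 in Prm2-/Δc mice. The mice of WT and of Prm2-/Δc differed among themselves by more than the genotype means did, while those of Prm2+/Δc all lay above those of WT. The 3 groups of this locus had an unadjusted p of 0.341 in edgeR's quasi-likelihood test over the 9 libraries.

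Emp2, an epithelial membrane protein gene at chr16:10281749-10313968 on the minus strand, 474 kb before the cluster, is the only gene of the interval with an Ensembl row of at least 10 normalized counts. It had 22.4, 51.8 and 24.6 in WT mice, 23.8, 22.3 and 26.8 in Prm2+/Δc mice and 20.3, 14.8 and 32.6 in Prm2-/Δc mice. The groups overlapped, with log2 fold changes against WT of -0.44 ± 0.40 in Prm2+/Δc and -0.55 ± 0.50 in Prm2-/Δc. Both rested on WT replicate 2, without which they were 0.041 ± 0.33 and -0.059 ± 0.50. The value in Prm2-/Δc was also -0.91 ± 0.54 without Prm2-/Δc replicate 3 and -0.31 ± 0.56 without Prm2-/Δc replicate 2. Of the other 21 Ensembl rows, 13 were at 0 throughout.

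The second question was how differences change with distance. The Spearman correlation between the absolute log2 fold change and the distance in locus numbers, over the 66 tested loci, was 0.085 for Prm2+/Δc against WT, -0.040 for Prm2-/Δc against WT and -0.080 for Prm2-/Δc against Prm2+/Δc. In the same order it was 0.12, 0.10 and 0.0035 before the cluster and 0.17, 0.029 and -0.061 after it. For Prm2-/Δc against WT neither side had the pooled sign. Loci after the cluster reach only 27 locus numbers, so pooled values and the bins below mix distance with side. The median absolute log2 fold change in Prm2-/Δc against WT was 0.26 at 1 to 10 locus numbers, 0.15 at 11 to 25, 0.18 at 26 to 50 and 0.13 beyond 50. In Prm2+/Δc against WT the medians were 0.15, 0.11, 0.16 and 0.15, and between the 2 edited genotypes 0.14, 0.12, 0.17 and 0.097. The first bin rests on 13 loci and the last on 14. Pooled over both sides, level tracked the size of the difference more closely than distance did. Spearman correlations between the mean log2 count and the absolute log2 fold change were -0.31, -0.38 and -0.37 in the 3 comparisons, over the same 66 loci and libraries. They were -0.33, -0.44 and -0.36 before the cluster and -0.17, -0.098 and -0.14 after it. After the cluster, level was about as close as distance in Prm2+/Δc against WT.

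**Figure D3:**
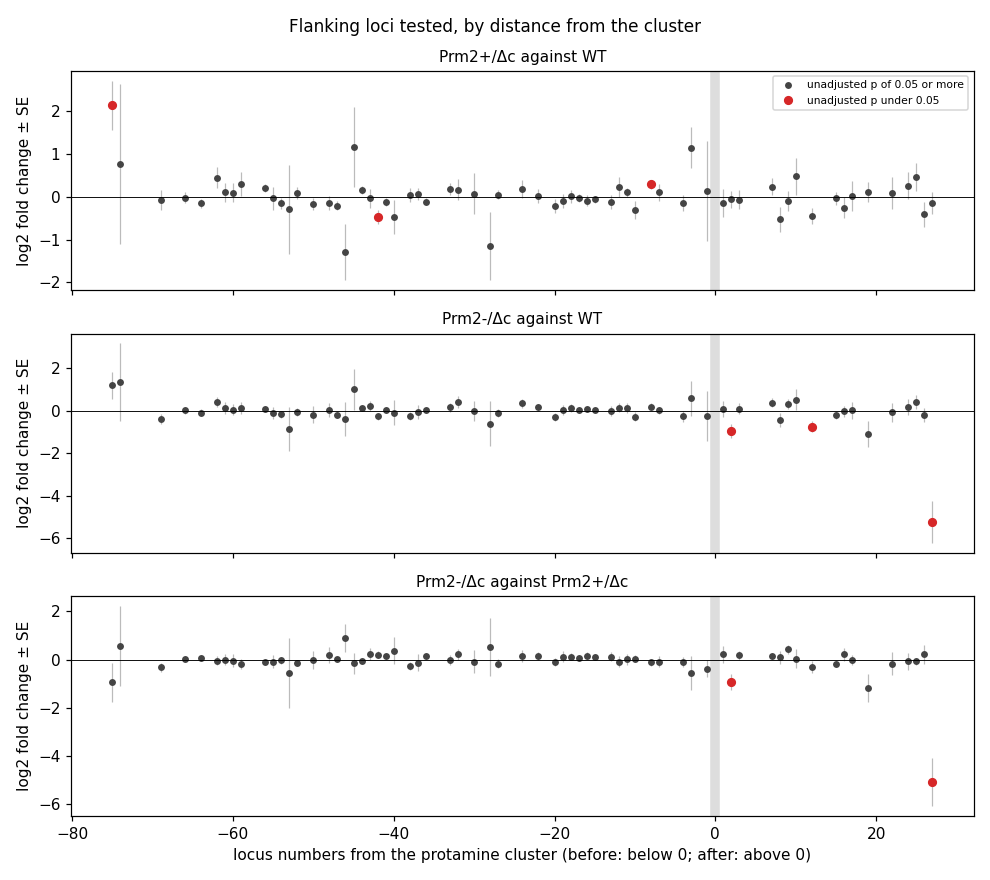
Log2 fold change ± SE of the 66 tested flanking loci against their distance in locus numbers from the cluster (grey band), before it to the left and after it to the right, for the 3 comparisons of 3 mice each. Red marks an unadjusted p under 0.05 by edgeR's quasi-likelihood test. Over the 3 panels, the red points reach from the ends of the interval to within 2 locus numbers of the cluster. They all lie before the cluster in Prm2+/Δc against WT and all after it in the other panels.

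Pooled over both sides of the cluster, and with no matching for level, the flanking loci had smaller median differences than all rows. Their median log2 fold change was -0.02 in Prm2+/Δc against WT, 0.03 in Prm2-/Δc against WT and -0.01 in Prm2-/Δc against Prm2+/Δc. Medians of the absolute log2 fold change were 0.15, 0.17 and 0.14, against 0.19, 0.21 and 0.20 for all rows tested and 0.16, 0.20 and 0.19 for the tested ones among MSTRG.8556 to MSTRG.8787. An unadjusted p under 0.05 was found at 4.55%, 4.55% and 3.03% of the flanking loci in the 3 comparisons and at 4.38%, 6.37% and 10% of those next loci. Without Prm2-/Δc replicate 3 the last pair was 11.9% and 14.3%.

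The 2 sides are set apart here after their values were seen. For Prm2-/Δc against WT, the 17 tested loci after the cluster had a median absolute log2 fold change of 0.34 and the 49 before it 0.15, where all rows gave 0.21. An unadjusted p under 0.05 was found at 17.6% of those after it and 0% of those before it, and groups that did not overlap at 23.5% and 12.2%, where all rows gave 3.20% and 8.90%. Between the 2 edited genotypes the medians were 0.18 and 0.13, both under the 0.20 of all rows, an unadjusted p under 0.05 was found at 11.8% and 0%, where all rows gave 4.08%, and the groups did not overlap at 29.4% of loci after the cluster and 4.08% before it, where all rows gave 10.1%. Without Prm2-/Δc replicate 3 the shares at an unadjusted p under 0.05 were 11.8% after the cluster and 6.12% before it against WT, where all rows gave 4.78%. Against Prm2+/Δc they were then 11.8% and 12%, where all rows gave 8.73%. The medians were 0.38 and 0.18 against WT and 0.16 and 0.14 against Prm2+/Δc, where all rows gave 0.25 in both. For Prm2+/Δc against WT the order was the other way. An unadjusted p under 0.05 was found at 0% after the cluster and 6.12% before it, where all rows gave 3.70%. Groups were apart at 11.8% and 20.4%, where all rows gave 10.2%. All 5 loci over 1 in size lay before the cluster, 10.2% of the loci tested there, where all rows gave 5.71%. Medians were 0.15 on both sides, under the 0.19 of all rows. The side after the cluster holds few loci, Gm15738 among them. No test compared the sides or sets, and they were not matched for level.

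**Figure D4:**
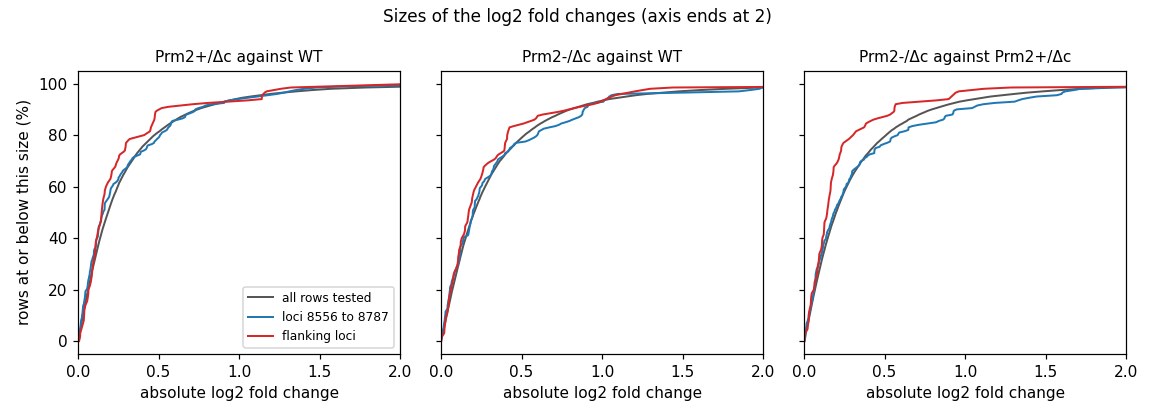
Percent of rows at or below each absolute log2 fold change, for the 66 tested flanking loci, the tested loci among MSTRG.8556 to MSTRG.8787, and all rows tested, in the 3 comparisons. The axis ends at 2, so Gm15738, at -5.23 and -5.09, and 1700037C18Rik, at 2.13 in Prm2+/Δc against WT, lie outside it.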

How the data were processed

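Testis RNA of 9 mice was made into QuantSeq 3'-end libraries, 1 per mouse. The authors aligned reads to GRCm38 with HISAT2 2.1, assembled loci with StringTie 1.3.3 and deposited estimated counts per locus or Ensembl gene as whole numbers; their own tests used DESeq2 1.16.1. The read length given to the counting step and the strand counted are not given in the sources used here. The flanking loci were chosen with earlier results of these data known.

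Here, edgeR 4.0.16 (R 4.3.3; TMM, filterByExpr, glmQLFit and glmQLFTest) was fitted to the deposited counts of the 2 groups compared, across all rows, with Benjamini-Hochberg adjustment over all rows tested. Calls needed an adjusted p under 0.05 together with a log2 fold change over 1 in size. SE is the size of the log2 fold change over the root of the F statistic. Normalized counts are counts divided by DESeq2 size factors over 9 libraries. The scripts were tested on simulated data, where DESeq2 made more false calls than edgeR and edgeR missed more changed rows. Those counts were drawn with edgeR's own dispersion estimates and a fixed size of change, so they cannot rank the tools at Gm15738. A bound on the rows each tool had to recover was replaced after edgeR did not reach it. Alternatives were DESeq2 1.42.0, other scalings, filters and members, all 9 libraries in 1 fit, a replicate block, and each library left out. Named are the 2 end loci, the 5 nearest on each side, the 5 most abundant, called loci, the 3 largest separated increases and decreases per comparison, and Ensembl rows of the interval with a mean of at least 10. Neighbours of the end loci, and rows past the last one, were added after their values were seen; other loci outside this rule are given for a count. Of the 36 pairs of libraries, none differed by as little as sampling noise (lowest chi-square per row 28.6).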

Additional observations from a re-analysis of the deposited data

How the results depend on the processing

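With 3 mice a group, only large and even differences can pass, and 36 of the 102 loci had too few counts to test. The count of called loci stayed at 0 under other scalings and filters in edgeR and under all 9 libraries in 1 fit. It was 1 with DESeq2 in each of the 2 comparisons of Prm2-/Δc (Gm15738), and with DESeq2 without a filter, chosen after seeing the data, it was 1 in all 3 comparisons, in Prm2+/Δc against WT at 1700037C18Rik. The cause was not tested. By edgeR, leaving out each library gave 0 to 1 called loci for Prm2+/Δc against WT. It gave 0 to 0 for the other comparisons and for the test over 3 groups. DESeq2 calls with a library left out are not given here.

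Same-numbered mice did not deviate together (correlations from -0.26 to 0.066), so no pairing by number was seen. The labels give none, and these correlations cannot exclude one. With the replicate block 0 loci were called in each comparison, and loci at an unadjusted p under 0.05 went from 3 to 4, 3 to 3 and 2 to 1. All rows gave 3.70%, 3.20% and 4.08% without the block, and their share with it is not given here. In the fit with the block the log2 fold change of MSTRG.8524 in Prm2-/Δc against WT was 0.44. That of MSTRG.8514 in Prm2-/Δc against Prm2+/Δc was -0.019 with the block, both of other sign. With library totals MSTRG.8484 in Prm2-/Δc against WT was -0.015.

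Loci at an unadjusted p under 0.05 in Prm2+/Δc against WT numbered 8 with DESeq2 (12.1%, all rows 6.5%) and 5 with DESeq2 without a filter (6.17%, all rows 2.8%). Within 25 locus numbers of the cluster they numbered 1 there, where all rows gave 3.70%. In Prm2-/Δc against Prm2+/Δc they numbered 1 within 25 (all rows 4.08%), and leaving out the end loci also gave 1. Those sets are smaller by construction. Within 25 there were 13 tested loci at 1 to 10 locus numbers and 19 at 11 to 25. Separated loci within 25 numbered 4, 4 and 4 in the 3 comparisons, where all rows gave 10.2%, 8.90% and 10.1%. The median log2 fold change in Prm2+/Δc against WT was -0.055 with library totals, 0.024 with no filter and 0.020 with DESeq2 without a filter. The Spearman correlation of the absolute log2 fold change with distance was 0.17 after the cluster in Prm2+/Δc against WT and 0.10 before it in Prm2-/Δc against WT.

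Leaving out each library, in the order Prm2+/Δc against WT, Prm2-/Δc against WT and Prm2-/Δc against Prm2+/Δc, gave 2 to 4, 1 to 5 and 1 to 8 loci at an unadjusted p under 0.05 (of all rows 2.83% to 6.04%, 2.21% to 4.78% and 3.18% to 8.73%), 14 to 21, 11 to 22 and 11 to 19 separated loci (21.2% to 31.8%, 16.7% to 33.3% and 16.4% to 28.4%, where all rows gave 17.6% to 24.2%, 15.4% to 22.6% and 17.4% to 28.9%), medians of -0.023 to 0.0044, -0.00044 to 0.064 and -0.038 to 0.014, and Spearman correlations with distance of -0.0016 to 0.12, -0.15 to 0.0036 and -0.22 to -0.023. Of these edgeR counts at an unadjusted p, the 1 came without WT replicate 2 in Prm2-/Δc against WT and without Prm2+/Δc replicate 1 in the last comparison. The 5 and 8 came without Prm2-/Δc replicate 3. The adjusted p of Gm15738 by edgeR ran from 0.134 to 0.99998 against WT and from 0.180 to 0.99994 against Prm2+/Δc. That of 1700037C18Rik in Prm2+/Δc ran from 0.0478 to 0.99986.

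Signs near 0 turned when 1 library was left out, with no call in any. In Prm2+/Δc against WT the ranges were -0.053 to 0.22 (MSTRG.8473), -0.095 to 0.017 (MSTRG.8508), -0.49 to 0.97 (MSTRG.8524), -0.37 to 0.032 (MSTRG.8529), -0.16 to 0.040 (MSTRG.8530), -0.25 to 0.027 (MSTRG.8531) and -0.40 to 0.018 (Gm15738). In Prm2-/Δc against WT they were -0.19 to 0.083 (MSTRG.8473), -0.47 to 0.17 (MSTRG.8475), -0.032 to 0.13 (MSTRG.8484), -0.048 to 0.12 (MSTRG.8508), -0.15 to 0.27 (MSTRG.8514), -0.86 to 0.58 (MSTRG.8524), -0.21 to 0.30 (MSTRG.8529) and -0.067 to 0.21 (MSTRG.8531). In Prm2-/Δc against Prm2+/Δc they were -0.31 to 0.32 (MSTRG.8475), -0.028 to 0.14 (MSTRG.8508), -0.27 to 0.15 (MSTRG.8514) and -0.080 to 0.45 (MSTRG.8529).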
